A study of Mus musculus with 2 samples.

Results

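Cytochrome P450 genes were compared between adipose tissue of C57BL/6 mice on a normal diet (CE-2) and on a high fat diet (HFD32). Members are the probe sets whose only gene symbol in the platform annotation is Cyp followed by a family number, a subfamily letter and a gene number. This gave 93 probe sets of 34945 with 1 symbol, and 70 genes of 18193. The genes fall into 15 families and 34 subfamilies. Another 4 probe sets carry several P450 symbols each and were left out.

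Both groups are C57BL/6, an inbred strain, and both were fed from 6 to 18 weeks of age, the high fat diet being given to induce obesity. No genetic change or other agent is named for either group. Each diet is represented by 1 array of RNA pooled from 3 animals, so there are no replicates, no test and no error between samples. Every difference below compares 2 pools. Depot and sex are not stated in the labels. In such bulk RNA, fewer cells of a type and less RNA per cell cannot be told apart.

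P450 enzymes hold a haem iron and use it to put 1 oxygen atom into a substrate, with electrons from a reductase. The families with low numbers, 1 to 3, handle mainly drugs, pollutants and dietary chemicals and are richest in liver. Family 4 hydroxylates fatty acids and eicosanoids, and families with higher numbers make or break down steroids, bile acids, vitamin D and retinoids. In fat, P450 enzymes are known for local work on fatty acids, retinoids and steroid hormones.

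Values are log2 signals from RMA, a method that corrects background, equalises arrays and summarises the probes of a probe set. The lowest and highest values were 2.04 and 14.28 with the normal diet, and 2.06 and 14.21 with the high fat diet. Each gene stands for its brightest probe set, by the mean of the 2 arrays, and a difference is high fat diet minus normal diet. A gene was called when the arrays differed at least 2-fold, a log2 difference of 1. A gene was "seen" on an array at or above the 95th percentile of 83 probe sets of sensory receptor genes, 4.92 for the normal diet and 4.95 for the high fat diet. It was "bright" where both arrays reached the 75th percentile of all probe sets other than controls, 7.61 and 7.62. The SD between the differences of probe sets of 1 gene was 0.27 over 5131 genes and 0.10 over the 7 P450 genes with 2 probe sets above the floor defined next. This error covers probes, not animals. Adipocyte markers fitted the labelled tissue on both arrays, since all 12 measured were seen on both, with Adipoq, which encodes adiponectin, at 14.21 and 14.12.

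Far more P450 genes were lower than higher on the high fat diet array. Of all 70 members, 20 were at least 2-fold lower (28.6%), against 3.06 percent of all genes, and 1 was higher by that much, against 2.63 percent. These counts take signals under background as measured. With such signals raised to background, 17 members were at least 2-fold lower and 1 higher, against 2.41 percent and 2.28 percent of all genes, since Cyp1a2, Cyp4f14 and Cyp3a13 no longer passed. Measured differences were below 0 in 42 of the 70, against 44.5 percent of all genes. Among the 30 members whose mean signal reached the median of all probe sets other than controls (5.44, the floor), 13 were at least 2-fold lower and 0 higher. The background there was 3.29 percent lower and 3.28 percent higher. Differences were below 0 in 23 of the 30, against 49.3 percent. At 4-fold, 11 of the 30 were lower and 0 higher, against 0.985 percent and 0.688 percent of genes. A member bright on 1 array only can pass or miss such a floor through that array alone, so the counts over all 70 are the fuller account. With the floor at the 75th percentile, only 6 members remained, each bright on both arrays, and 0 of them were past 2-fold.

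The members split by where they were seen. There were 24 seen on both arrays (34.3%), against 68.1 percent of all genes, and 18 on the normal diet array only (25.7%), against 2.69 percent. The high fat diet array alone showed 1 (1.43%), against 2.11 percent, and neither showed 27 (38.6%), against 27.1 percent. Members seen on the normal diet array only made up 41.9% of the 43 seen on at least 1 array. Among all 13261 genes seen on at least 1 array, 3.7 percent were seen on the normal diet array only and 2.89 percent on the high fat diet array only. Of the 43 seen, 19 were at least 2-fold lower and 1 higher, against 3.94 percent and 3.54 percent, and 34 were below 0, against 48.9 percent. Of the 24 seen on both, 4 were at least 2-fold lower and 0 higher, against 2.47 percent and 2.88 percent, and 16 were below 0, against 48.4 percent. Their median was -0.29, against 0.01 over all genes seen on both. Since the class seen on the normal diet array only is defined by the values, the direction of its members is fixed and is given as a description. The member nearest the limit inside it was Cyp46a1, with 4.96 and 4.60. Nearest outside were Cyp26b1, at 5.06, Cyp17a1, at 5.10, and Cyp2f2, at 5.12 with the high fat diet.

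**Figure D1:**
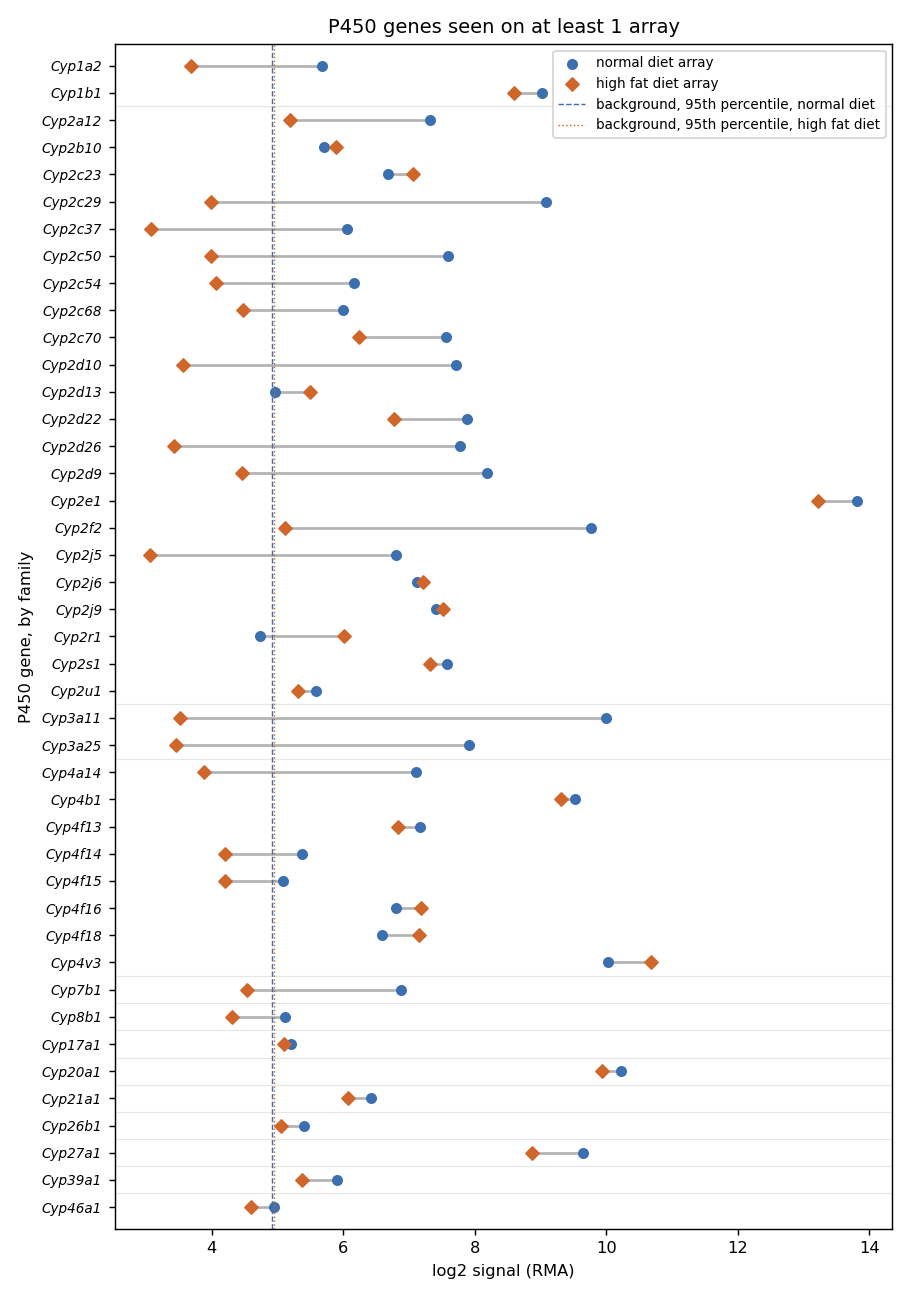
log2 signal (x axis) of the 43 P450 genes seen on at least 1 array, ordered by family (y axis), with 1 circle for the normal diet array and 1 diamond for the high fat diet array; vertical lines mark background at 4.92 and 4.95. Long bars cross the background lines for genes such as Cyp3a11 (9.99 and 3.52), while Cyp2e1 (13.81 and 13.23) stays far to the right on both arrays.

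Only 6 members were bright on both arrays, against 35.4 percent of all genes, and 0 of these were past 2-fold. Among all 6445 genes bright on both arrays, 78 were at least 2-fold lower and 120 higher. Cyp2e1, which oxidises ethanol, acetone and fatty acids, had 13.81 with the normal diet and 13.23 with the high fat diet. It was thus lower by 0.59 on the log2 scale, and lay close to the top of the scale on both arrays. Cyp27a1, the sterol hydroxylase of mitochondria, had 9.65 and 8.87, a difference of -0.78. Cyp1b1, which acts on oestrogens and polycyclic hydrocarbons and is known from mesenchymal cells, had 9.02 and 8.60, and its second probe set above the floor differed by -0.47. These 3 genes were lower, each by less than 2-fold.

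The other bright members differed by less, or the other way. Cyp20a1, whose substrate is unknown, had 10.23 and 9.93, while its second probe set above the floor differed by 0.01. Cyp4b1, which oxidises fatty acids and xenobiotics, had 9.53 and 9.31. The differences of both lay near the probe set SD of 0.27. Cyp4v3, a fatty acid hydroxylase, stood higher on the high fat diet array, with 10.02 and 10.69, and its other probe set gave 0.63 beside 0.66. It was the only bright member with a positive difference.

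Families 1 and 3, of drug and pollutant metabolism, were almost entirely at background on the high fat diet array. In family 3, Cyp3a11, the main drug-metabolising P450 of mouse liver, had 9.99 with the normal diet and 3.52 with the high fat diet. Set against the background level, it was at least 32.9-fold lower. Cyp3a25, of the same subfamily, had 7.92 and 3.46 and was at least 7.83-fold lower. Cyp3a13 had 4.75 and 3.33, both under background, so its fold is not given. Cyp3a16 and Cyp3a44 were seen on neither array. In family 1, Cyp1a2, which oxidises aromatic amines and caffeine, had 5.68 and 3.70, at least 1.66-fold lower. Cyp1a1, an inducible target of the aryl hydrocarbon receptor, was seen on neither array. Cyp1b1, bright on both arrays, was the only member of either family seen on the high fat diet array.

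**Figure D2:**
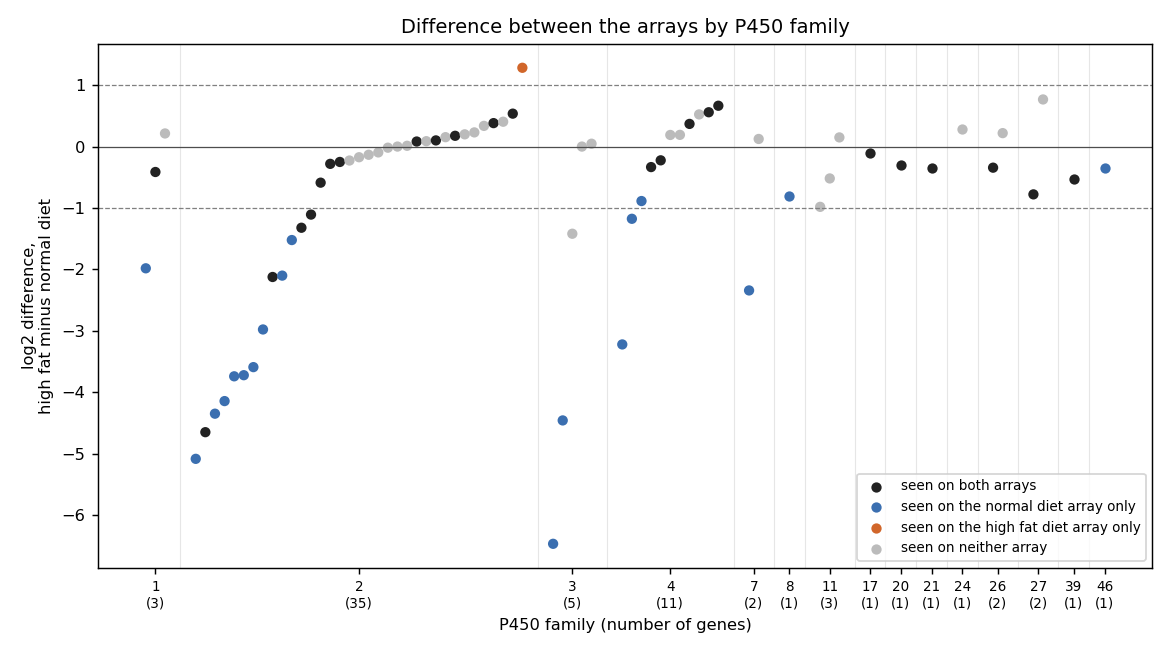
log2 difference, high fat minus normal diet (y axis), of all 70 P450 genes by family (x axis, with the number of genes), 1 point per gene, coloured by the arrays on which it was seen; dashed lines mark 2-fold. Families 2 and 3 reach -5.09 and -6.47, while the seen members of families 17 and above all lie between -0.78 and -0.11.

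Family 2, the largest with 35 genes, held both extremes of behaviour. Of its members 12 were seen on both arrays, 9 on the normal diet array only, 1 on the high fat diet array only and 13 on neither. The median difference of the 22 seen was -1.42. Over all 35 it was -0.17, and over the 12 seen on both -0.27. For comparison, the median was 0.00 over the 13261 genes seen on at least 1 array.

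The Cyp2c genes, epoxygenases of arachidonic acid and hydroxylases of drugs and bile acids, had a median of -2.10 over 7 seen members of 11, of which 5 were seen on the normal diet array only. It was -1.32 over all 11, and -1.22 with signals raised to background. Cyp2c29, an abundant epoxygenase of mouse liver, had 9.08 and 3.99 and was at least 17.5-fold lower. Cyp2c50 had 7.59 and 3.995, at least 6.22-fold lower. Cyp2c54 had 6.17 and 4.07, Cyp2c37 had 6.05 and 3.08, and Cyp2c68 had 5.99 and 4.47. All 5 were under background on the high fat diet array.

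Cyp2c70 and Cyp2c23 were seen on both arrays. Cyp2c70, which makes the muricholic acids of mouse bile, had 7.57 and 6.25 and was 2.50-fold lower. Cyp2c23, an epoxygenase known from kidney, had 6.68 and 7.06, the only seen Cyp2c gene with a positive difference. Its probe set is of a kind that can match several transcripts. Among the other seen members, so are those that stand for Cyp2d9, Cyp2f2, Cyp4v3 and Cyp7b1. Cyp2c38, Cyp2c39, Cyp2c55 and Cyp2c65 were seen on neither array.

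The Cyp2d genes, which oxidise basic drugs, had a median of -3.72 over 5 seen members of 8, of which 3 were seen on the normal diet array only. It was -0.62 over all 8, and -2.76 with signals raised to background. Cyp2d26 had 7.78 and 3.43, Cyp2d10 had 7.72 and 3.57, and Cyp2d9 had 8.18 and 4.46. Their lower bounds were 7.11-fold for Cyp2d26, 6.80-fold for Cyp2d10 and 9.40-fold for Cyp2d9. Cyp2d22 differed from these relatives in being seen on both arrays, with 7.89 and 6.78. Its second probe set had -1.22 beside -1.11, so it was 2.16-fold lower by the brighter one. Cyp2d13, a transcribed pseudogene in RefSeq, had 4.96 and 5.49, the only seen Cyp2d gene with a positive difference. Cyp2d12, Cyp2d34 and Cyp2d40 were seen on neither array.

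Among the rest of family 2, Cyp2f2, which activates naphthalene in lung and liver, had 9.77 and 5.12, 25.1-fold lower. Its high fat diet signal lay just above background. Cyp2a12, a steroid hydroxylase of liver, had 7.32 and 5.20, 4.36-fold lower. Cyp2b10, a target of the xenobiotic receptor CAR, had 5.72 and 5.89. Its other 2 probe sets differed by -0.13 and -0.14, so no direction is given. Cyp2b9, Cyp2b13, Cyp2b19 and Cyp2g1 were seen on neither array.

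The Cyp2j genes, which make epoxides of arachidonic acid, split within 1 subfamily. Cyp2j5, known from liver and kidney, had 6.81 and 3.07 and was at least 3.62-fold lower. Its dimmer probe set differed by -1.35 beside -3.74 and was under background on both arrays. Cyp2j6 had 7.13 and 7.21, and Cyp2j9 had 7.41 and 7.51. Both differed by less than the probe set SD, and the second probe set of Cyp2j6 had -0.03. Cyp2j11 and Cyp2j13 were seen on neither array.

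Cyp2r1, an enzyme that makes 25-hydroxyvitamin D, was the only member past 2-fold upward. It had 4.74 with the normal diet, under background, and 6.02 with the high fat diet, at least 2.14-fold higher. It has 1 probe set, its mean lies below the floor, and with background set at the 90th percentile it was no longer seen on 1 array only. Cyp2s1, an enzyme of epithelia, had 7.57 and 7.32. Cyp2u1, a fatty acid hydroxylase, had 5.59 and 5.31, while its dimmer probe set, under background on both arrays, differed by 0.57.

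Family 4, of fatty acid hydroxylases, had a median of -0.28 over 8 seen members of 11, and 0.37 over the 5 seen on both arrays. Cyp4a14, a classical target of PPAR alpha in liver, had 7.12 and 3.89, at least 4.48-fold lower. Cyp4f14 had 5.38 and 4.20 and Cyp4f15 had 5.09 and 4.20, lower by at least 1.34-fold and 1.10-fold. Cyp4f genes hydroxylate leukotrienes and other eicosanoids. In the other direction, Cyp4f18, known from leukocytes, had 6.59 and 7.15, and Cyp4f16 had 6.81 and 7.18. Cyp4f13 had 7.18 and 6.84. None of these last 3 reached 2-fold, and both probe sets of Cyp4f16 and of Cyp4f18 had positive differences. Beside Cyp4f18, the macrophage markers were higher, with a median of 1.03 over 13 genes and Cd68 at 2.30. Of the 13, 7 were at least 2-fold higher, against 3.28 percent of all genes above the floor. The part of macrophages in the Cyp4f18 value was not tested. Cyp4a31, Cyp4f39 and Cyp4x1 were seen on neither array.

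The bile acid and oxysterol enzymes of families 7, 8, 27, 39 and 46 had 5 seen members, of which 1 passed 2-fold. That gene, Cyp7b1, the oxysterol hydroxylase of the alternative bile acid pathway, had 6.89 and 4.54 and was at least 3.82-fold lower. Its 2 probe sets seen on the normal diet array differed by -2.35 and -2.34, while another, under background on both arrays, differed by -0.21. Cyp8b1, which sets the share of cholic acid, had 5.11 and 4.30, a bound of 1.12-fold. Cyp39a1, an oxysterol hydroxylase, had 5.91 and 5.37, and Cyp46a1, the cholesterol hydroxylase of neurons, had 4.96 and 4.60, a bound of 1.004-fold. Cyp7a1, the rate-limiting enzyme of the classical bile acid pathway, was seen on neither array, as was Cyp27b1, which makes active vitamin D.

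Steroid, vitamin D and retinoid P450 genes were dim. Cyp21a1, the adrenal steroid hydroxylase, had 6.43 and 6.08. Cyp17a1, of androgen synthesis, had 5.20 and 5.10. Cyp26b1, which breaks down retinoic acid, had 5.40 and 5.06. The 3 differences lay between -0.35 and -0.11 and none reached 2-fold. Cyp11a1, Cyp11b1, Cyp11b2, Cyp24a1 and Cyp26a1 were seen on neither array. Adrenal cortex markers, 7 measured and all above the floor, had a median difference of 0.14, with 4 above 0 and 3 below. Hsd3b1 was at least 2-fold lower, with 6.23 and 4.73, the latter under background. That is 1 of 7, against 3.29 percent of all genes above the floor. Mrap (0.71), Mc2r (0.40) and Nr5a1 (0.16) went the other way. Star, which carries cholesterol into mitochondria, had 6.997 and 6.62.

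P450 genes lie in tandem arrays formed by duplication, and neighbours in the RefSeq annotation of GRCm38.p6 did not share 1 pattern. In the Cyp2c array from Cyp2c55 to Cyp2c70, 5 of 10 measured genes were seen on the normal diet array only, 4 on neither and 1 on both. Cyp2j5 stands beside Cyp2j9, followed by Cyp2j6, and was at least 3.62-fold lower, while those had 0.10 and 0.08. Cyp2d22 stands at the measured end of the array that holds Cyp2d10 and Cyp2d9, and was seen on both arrays while they were not. Cyp4b1 (-0.22) lies in the same array as Cyp4a14 (at least 4.48-fold lower), and Cyp2s1 (-0.25) starts the array whose last measured genes are Cyp2a12 and Cyp2f2. Cyp4f14 and Cyp4f15 lie next to each other, and the nearest measured genes, Cyp4f16 and Cyp4f13, were seen on both arrays. Close copies can share probe targets, so the split of signal between such copies is uncertain.

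**Figure D3:**
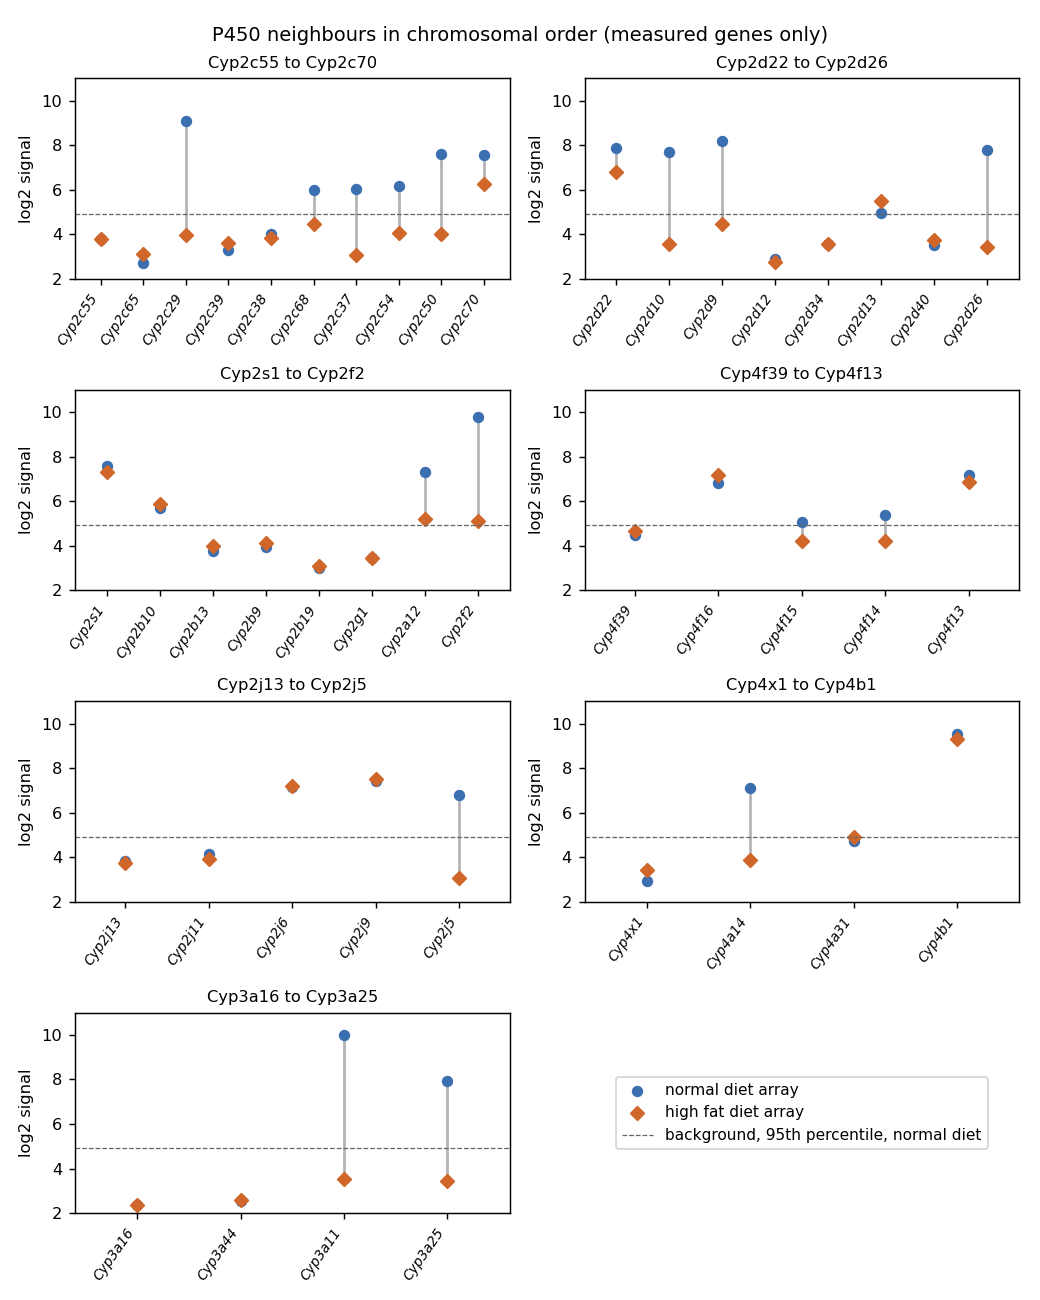
log2 signal (y axis) of measured P450 genes in the order in which they lie in the 7 tandem arrays with at least 4 measured members (x axis), with circles for the normal diet array, diamonds for the high fat diet array and a dashed line at the normal diet background of 4.92. Cyp2j5 has 6.81 and 3.07 beside Cyp2j9, which has 7.41 and 7.51.

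Upstream sequence was looked at because so many members were low on the same array. RefSeq windows of GRCm38.p6 matched 51 of the 70 members, and the 250 bases before the start were searched on both strands. The searched letters were CAAAGTCCA, an element bound by the liver factor HNF4, AGGTCA, the core repeat of nuclear receptor sites, GTTAAT, the arm of the HNF1 palindrome, and TATAAA, the TATA box. None of the 4 contains another. CAAAGTCCA was found in 6 of 51 member windows (11.8%) and in 102 of all 27025 windows (0.377%). It stood in 3 of 15 windows of members seen on the normal diet array only, 1 of 17 of those seen on both and 2 of 18 of those seen on neither. The 3 were Cyp3a11, Cyp8b1 and Cyp2c68. Related genes share ancestral sequence, so these windows are not independent, and a match is a description of letters only.

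Of these windows 3 are shown, for Cyp3a11 as a member seen on the normal diet array only, for Cyp2c70 as the member with the element that was seen on both arrays, and for Cyp2e1 as the brightly measured member without it. They lie at chr5:145879855-145880104 (minus strand), chr19:40187287-40187536 (minus) and chr7:140763569-140763818 (plus), in that order. Capitals mark the matches to any of the searched letters or their reverse complements, and each window reads 5′ to 3′ towards the gene.
Cyp3a11: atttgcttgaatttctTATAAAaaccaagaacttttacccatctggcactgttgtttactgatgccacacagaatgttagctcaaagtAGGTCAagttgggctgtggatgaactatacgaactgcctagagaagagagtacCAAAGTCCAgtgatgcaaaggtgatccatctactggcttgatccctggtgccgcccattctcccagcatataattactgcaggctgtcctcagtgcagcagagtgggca
Cyp2c70: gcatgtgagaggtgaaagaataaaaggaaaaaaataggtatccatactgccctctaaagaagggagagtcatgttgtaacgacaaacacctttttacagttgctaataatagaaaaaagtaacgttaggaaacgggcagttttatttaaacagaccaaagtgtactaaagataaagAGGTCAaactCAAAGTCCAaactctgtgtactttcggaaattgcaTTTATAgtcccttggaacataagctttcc
Cyp2e1: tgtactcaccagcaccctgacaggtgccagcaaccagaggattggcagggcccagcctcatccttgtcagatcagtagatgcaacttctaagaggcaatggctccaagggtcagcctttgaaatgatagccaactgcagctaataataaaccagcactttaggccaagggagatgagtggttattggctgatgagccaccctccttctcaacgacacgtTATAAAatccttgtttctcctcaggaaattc
In Cyp3a11 and Cyp2c70 the CAAAGTCCA match starts 109 and 64 bases before the start of the gene. In Cyp2e1 the TATAAA match starts 31 bases before it. AGGTCA occurred in 11 of 51 member windows (21.6%) against 13.8% of all windows, TATAAA in 19 (37.3%) against 13.0%, and GTTAAT in 2 (3.92%) against 6.54%. Hnf4a itself, which encodes HNF4 alpha, had 7.20 with the normal diet and 6.22 with the high fat diet, a difference of -0.98. The part of these letters or of Hnf4a in the P450 values was not tested.

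The members were also divided by a list of 45 P450 genes known mainly from hepatocytes, chosen with earlier results of these arrays known. Of 34 measured, 18 were at least 2-fold lower (52.9%), 17 were seen on the normal diet array only and 10 on neither. Of the 36 other members, 2 passed 2-fold downward by measured values (5.56%), Cyp2d22 and Cyp3a13, of which Cyp3a13 was under background on both arrays. Of these 36, 17 were seen on neither. Over all genes, 3.06 percent were at least 2-fold lower, 2.69 percent were seen on the normal diet array only and 27.1 percent on neither. Above the floor the medians were -3.41 over 16 genes of the list and -0.27 over 14 others, against 0.00 over all 11778 genes. Of the 16, 9 were seen on the normal diet array only. The list's median was -1.25 with no floor and -2.03 with signals raised to background. With the floor at the 75th percentile it was 0.039, from Cyp2e1 and Cyp4v3 alone. The 7 listed genes seen on both arrays were Cyp2a12, Cyp2b10, Cyp2c70, Cyp2e1, Cyp2f2, Cyp4v3 and Cyp39a1. They ran from -4.65 for Cyp2f2 to 0.66 for Cyp4v3.

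Hepatocyte markers other than P450 genes moved with these members. Of 23 measured, 22 lay above the floor, with a median of -5.04. Of these 22, 21 were at least 2-fold lower (95.5%), against 3.29 percent of all genes above the floor. The summed signal of the list had a log2 of 15.58 with the normal diet and 14.11 with the high fat diet. Without Hp, a step chosen after seeing the data, these were 15.13 and 9.92. All 23 were seen with the normal diet, and 12 of them with the high fat diet. Alb, which encodes albumin, had 13.15 and 7.91, while Fga, of fibrinogen, was under background on the high fat diet array, with 9.59 and 3.17. Hp, haptoglobin, which fat also makes, went the other way, with 13.70 and 14.02. Kidney proximal tubule markers had a median of -1.62 over 3 genes above the floor, with Kap at -2.80. Over all 8 measured, 5 were at least 2-fold lower by measured values (62.5%), against 3.06 percent of all genes. Of the 8, 3 were seen on the normal diet array only, against 2.69 percent. Lung markers were seen in 1 of 6 cases, Sftpb, at 5.86 and 6.12, and Scgb1a1, the defining transcript of club cells, had 4.10 and 4.07, under background. Markers of other tissues also differed between the arrays. Of 6 pancreas acinar markers 5 were at least 2-fold lower (median -2.77), against 3.29 percent of all genes above the floor. The other, Cela1, went the other way, with 9.93 and 10.87. Of 5 intestinal markers, 0 reached the floor. Of those 5, 2 were seen on the normal diet array only, Fabp2 at 5.05 and 3.18 and Apoa4 at 5.11 and 4.81. Epididymis and testis markers were at least 2-fold higher in 5 of 7 cases above the floor and lower in 2, with a median of 4.12. Over all genes above the floor, 3.28 percent were higher and 3.29 percent lower by that much. The 5 higher were Gpx5, Lcn8, Lcn9, Adam7 and Cst12. The 2 lower were Tnp1 (-3.08) and Prm1 (-1.91), so the median does not describe the whole list. The part of RNA from any of these tissues in the P450 values was not tested.

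The partners that P450 enzymes need differed little between the arrays. All 14 measured genes of electron transfer and haem synthesis were seen on both arrays, with a median difference of 0.04. At 2-fold, 0 were higher and 1 lower, against 3.28 percent and 3.29 percent of all genes above the floor. That gene was Alad, the second enzyme of haem synthesis, with 10.06 and 8.97. Alas1, the first enzyme, had 10.81 and 11.17, and Cyb5b, a cytochrome b5, had 11.70 and 12.25. Por, the reductase of microsomal P450 enzymes, was not analysed here. Of the 21 measured receptors and factors that act on P450 genes, 14 lay above the floor, with a median of -0.26 and 0 past 2-fold in either direction. Nr1i2 and Nr1i3, which encode the xenobiotic receptors PXR and CAR, were seen on neither array. Nr3c1, the glucocorticoid receptor, had 10.67 and 9.85, Ppara had 6.66 and 6.13, and Nr1h3, which encodes the oxysterol receptor LXR alpha, had 8.86 and 9.25.

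Conjugating enzymes attach sugars, sulfate or other groups to the products of P450 enzymes. Of 16 measured, 8 were seen on the normal diet array only and 6 on both, against 2.69 percent and 68.1 percent of all genes. By measured values 8 of the 16 were at least 2-fold lower, against 3.06 percent. Above the floor, 4 of 9 were at least 2-fold lower and 0 higher, with a median of -0.70. The background there was 3.29 percent lower and 3.28 percent higher. The next 3 genes, under background on the high fat diet array, passed the floor through the normal diet array alone. Ugt2b5, Ugt2b36 and Ugt2b1, glucuronosyltransferases, had lower bounds of 8.66-fold, 5.40-fold and 5.08-fold for being lower, and Nat1 had 5.65 and 6.50. Leaving out probe sets open to several transcripts, the median became -2.64, and with the floor at the 75th percentile -0.06. Flavin monooxygenases, another class of oxygenases, were lower in 3 of 3 cases above the floor, with Fmo1 at 11.04 and 9.91 (2.19-fold) and Fmo2 at -0.71. Differences were below 0 in 49.3 percent of all genes above the floor. Epoxide hydrolases, which open the epoxides that Cyp2c and Cyp2j enzymes make, had 0.93 for Ephx1, 0.42 for Ephx2 and -0.28 for Ephx3, with 0 of 3 past 2-fold.

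**Figure D4:**
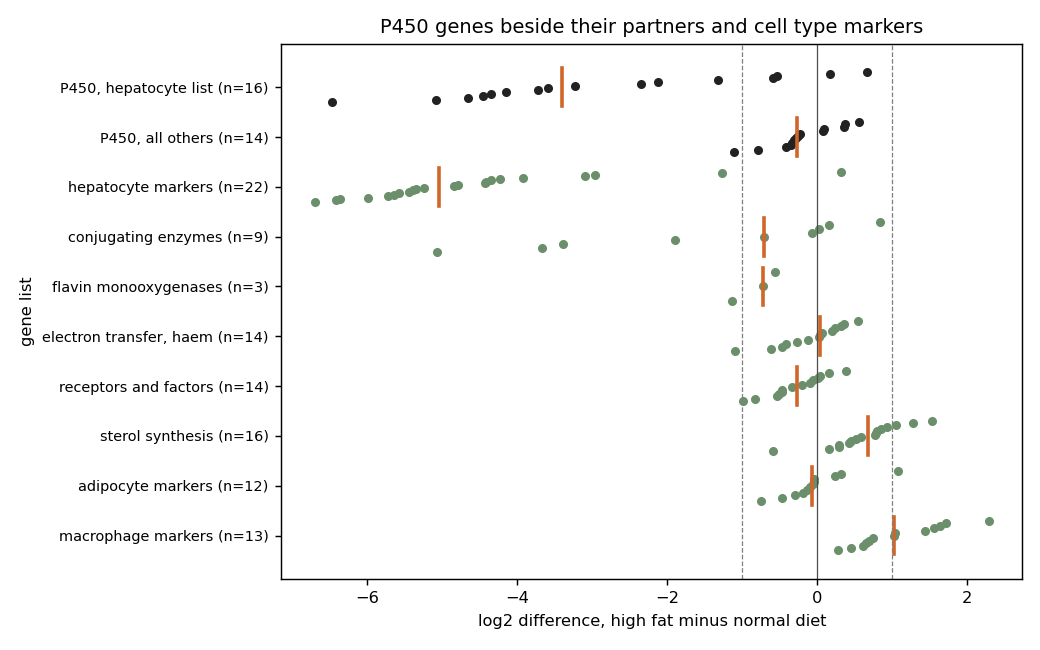
log2 difference, high fat minus normal diet (x axis), of genes above the floor in 10 lists (y axis, with the number of genes), 1 point per gene with the list's median as a vertical bar; dashed lines mark 2-fold. P450 genes of the hepatocyte list (median -3.41) and hepatocyte markers (median -5.04) lie to the left, whereas the other P450 genes (median -0.27) and the electron transfer and haem genes (median 0.04) lie near 0. The lists were chosen with earlier results of these arrays known. The median of the P450 hepatocyte list was -1.25 with no floor and -2.03 with signals raised to background.

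P450 enzymes whose symbols follow another form, and so are no members, are given beside their pathways. Cyp51, the lanosterol demethylase of cholesterol synthesis, had 7.96 and 8.94, a difference of 0.98. The other sterol synthesis genes had a median of 0.68 over 16 genes, 15 of them with a positive difference and 3 at least 2-fold higher. Over all genes above the floor, 3.28 percent were at least 2-fold higher. Tbxas1, which makes thromboxane and is known from macrophages and platelets, had 7.01 and 8.28, 2.41-fold higher, and macrophage markers were higher as given above. Their part in the Tbxas1 value was not tested. Ptgis, which makes prostacyclin in vessel walls, had 9.43 and 8.95. Endothelium and smooth muscle markers had a median of -0.66 over 8 genes, all below 0. Of these, 3 were at least 2-fold lower, against 3.29 percent of all genes above the floor. They were the smooth muscle genes Cnn1 (-3.54), Myh11 (-3.25) and Tagln (-1.71), while the endothelial gene Cdh5 had -0.39. Cyp4a12a had 6.09 and 3.63 and was seen on the normal diet array only.

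Above the floor, retinoid genes outside the P450 family stayed within 2-fold, whereas 2 steroid genes did not. Retinoid handling genes had a median of -0.06 over 10 genes above the floor, or 0.015 with the arrays centred, and 0 were past 2-fold. Aldh1a1, which makes retinoic acid, had 12.23 and 11.66, and Aldh1a2 had 7.82 and 8.32. Steroid synthesis and conversion genes had a median of 0.45 over 13 genes above the floor. Of these 13, 2 were at least 2-fold lower (15.4%) and 0 higher, against 3.29 percent and 3.28 percent of all genes. Hsd3b1 was at least 2.43-fold lower and Hsd11b1, which regenerates active glucocorticoid, had 11.98 and 10.66. Hsd17b12, of long-chain fatty acid and steroid synthesis, had 11.52 and 12.37. Without the floor the median of this list was -0.10.

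Of the 27 members seen on neither array, 1 differed by more than 2-fold, Cyp3a13 at -1.42, and their differences ran from -1.42 to 0.77. A signal under the background of sensory receptor genes does not show that a transcript is absent. Among the 18 members with several probe sets, 0 had probe sets that disagreed in sign with a gap over 1.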

How the data were processed

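RNA of adipose tissue was measured on 2 Affymetrix arrays, 1 per diet, each a pool of 3 mice. The deposited values are log2 signals of 45101 probe sets, which the authors made with RMA, per the submitters' processing notes (the version is not stated). The sorted columns differed nowhere by more than 0.14, so total RNA differences were removed.

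Gene names came from the platform annotation in GEO, and all 93 member symbols were the same by Entrez ID in RefSeq for GRCm38.p6. Promoter windows were taken nearest to the annotated gene start. Seen, bright, the floor and the 2-fold limit are defined in the results. Where the dimmer array lay under background, the ratio was computed against background and written "at least". Pathway, marker and member lists were chosen with earlier results of these data known. The rule for named genes gave values for each seen member past 2-fold, each bright on both arrays, and each seen member of families 11, 17, 19, 21, 24, 26, 27, 46 and 51. From every list it took up to 3 genes farthest on the side of its median and 1 on the opposite side, plus Alb, Adipoq, Cd68, Tbxas1, Ptgis and Por, of which Por was not analysed here. Other genes given with values were chosen after their values were seen. The steps that make the calls were tested on simulated data. The changed genes there lay above background on both arrays, so calls of genes dim on 1 array were not tested. Python 3.11.15, numpy 2.4.6 and pandas 2.3.3 were used. Protein sequence identity was planned and was not run. The number of arrays limits the precision.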

Additional observations from a re-analysis of the deposited data

How the results depend on the processing

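With 1 array per diet no replicate could be left out and no spread between samples is known. No paired analysis was possible because each diet has 1 array. Of 144 alternative values of 26 results under 13 settings, 111 stayed within 1.5 times (counts) or 0.27 on the log2 scale (differences and medians), 32 moved further and 1, a median past 2-fold, reversed. The sign changed in 8 in all, 7 of them values under 2-fold. The cause was not tested unless the setting itself shows it. A floor at the 75th percentile, on the mean of both arrays, left out members dim on 1 array and kept only the 6 bright on both. Of these, 0 were lower by 2-fold. The hepatocyte list median was then 0.039, from Cyp2e1 and Cyp4v3 alone. With no floor 20 were lower, 1 higher, and that median was -1.25. Past 1.5-fold 1 was higher. With signals under background raised to it, 17 were lower, 1 was higher, and the medians were -0.43 over all seen members, -1.11 for family 2, -1.22 for Cyp2c, -2.76 for Cyp2d and -2.03 for the hepatocyte list. Leaving out probe sets open to several transcripts, they were -2.54 for Cyp2c, -2.63 for Cyp2d and -2.78 for the list. Under that setting 11 members above the floor were at least 2-fold lower, beside 13 as reported. Over all members, seen or not, they were -0.24 in all, -0.17 for family 2, 0.19 for family 4, -1.32 for Cyp2c and -0.62 for Cyp2d. Over members seen on both arrays they were -0.29 in all, -0.27 for family 2 and 0.37 for both family 4 and Cyp4f. At the 90th percentile of background, 0 members were seen on the high fat diet array only. Centring the arrays shifts every difference by 0.07, less than the limit of 0.27, so differences and medians could not leave it. The counts past 2-fold stayed at 0 higher and 13 lower. These values are among the 111, as are repeats of Cyp2e1, which has 1 probe set. Signal over background limits the fold of the 18 members seen on the normal diet array only.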
